A study of Mus musculus with 17 samples.

Results

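The effect of MCJ loss was estimated across the whole experiment, with all 17 of the 17 libraries in 1 model of treatment plus genotype, 8 from MCJ-deficient (KO) mice and 9 from wild-type (WT) mice. The libraries came from preparations that the labels call colon macrophages, taken from C57BL/6(h-2b) mice of 8 weeks. The library titles code 3 treatments as NN, NP and PP, and the labels describe them. NN has no treatment named (2 KO and 3 WT libraries). NP is dextran sulfate sodium (DSS) for 6 days (3 KO and 3 WT). PP is a broad-spectrum antibiotic for 7 days and then DSS for 6 days (3 KO and 3 WT). Colon tissue was digested with collagenase IV and no sorting step is named. Each library carries 1 mouse number in its label, and some numbers recur in more than 1 group. The p-values measure the spread between these samples, with each library taken as a separate mouse. The labels name neither the deleted part of the gene nor whether the KO is limited to some cells. The question put to the data was which genes differed in the same direction between KO and WT preparations in each of the 3 treatments.

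MCJ, the methylation-controlled J protein, is the product of Dnajc15. It sits in the inner mitochondrial membrane, where it restrains complex I of the respiratory chain and the joining of respiratory complexes into supercomplexes. It also belongs to the J-domain co-chaperones that stimulate mitochondrial HSP70 at the TIM23 import channel. DSS, given in drinking water, injures the colonic epithelium and brings inflammatory cells into the wall of the colon.

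Raw counts summed to between 29194744 and 37083344 per library over 27179 genes, and 16958 genes passed the filter on low counts. Mitochondrially encoded genes took 23.1 and 28.4% of the counts in KO NN libraries against 38.9, 42.2 and 50.4% in WT NN libraries. In NP they took 33.8, 43.9 and 49.0% in KO libraries and 40.0, 40.9 and 32.3% in WT libraries, and in PP 27.3, 25.4 and 35.2% in KO libraries and 38.7, 43.7 and 48.4% in WT libraries. The KO share was thus below the WT share in every library of NN and PP, and the genotypes overlapped in NP. Against the label of the tissue, markers of macrophages were scarce. The summed level of the 15 macrophage markers was 41.8 to 48.2 CPM (counts scaled to library size) in KO NN libraries and 29.2 to 46.6 CPM in WT NN libraries, while the 18 colonocyte markers summed to 22250 to 29970 CPM and 30050 to 32980 CPM. In PP the macrophage sum was 2930 to 5535 CPM in KO libraries and 642 to 5110 CPM in WT libraries, still below colonocyte sums of 11990 to 15590 CPM and 11440 to 17270 CPM. In bulk RNA, fewer cells of a type and less RNA per cell cannot be told apart. Xist, the transcript of the silenced X chromosome, had 7176 and 7950 counts in the KO NN libraries against 2048, 1100 and 1 in the WT NN libraries. KO NP library 21 held 3822 Xist counts together with 1498 counts of chromosome Y genes, and every other NP and PP library had 9 or fewer Xist counts. The labels do not give the sex of the mice, so Insig1, the other named separated genes and the main gene lists are also given without the NN libraries and KO NP library 21.

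Dnajc15 (gene 66148, chromosome 14, 77826217 to 77874917, GRCm38) served as the check of the labels. It had 104 and 111 counts in KO NN libraries against 1286, 359 and 1028 in WT NN libraries. In NP it had 121, 60 and 65 counts in KO libraries against 1217, 1457 and 1534 in WT libraries, and in PP 21, 22 and 105 counts in KO libraries against 827, 817 and 939 in WT libraries. All KO libraries lay below all WT libraries, and no KO library reached 0. The log2 fold change of the additive fit was -4.04 ± 0.35 (SE), with an adjusted p of 7.78e-06 (edgeR quasi-likelihood test, Benjamini-Hochberg adjustment). It was -3.70 in NN, -4.19 in NP and -4.18 in PP, and the edgeR test of a difference between treatments gave an adjusted p of 1. An exact permutation test of the genotype within treatments, two-sided, gave p = 0.00025 for the mean log2 difference of -4.16, the smallest p that the 4000 arrangements allow.

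Beyond Dnajc15, the edgeR test of the additive model called 1 gene, Insig1, at an adjusted p under 0.05. Genes called higher in KO were thus 0.0059% of the 16958 tested, and genes called lower, Dnajc15 alone, were 0.0059%. At an unadjusted p under 0.05 there were 1175 genes higher in KO (6.93%) and 836 lower (4.93%). At an adjusted p under 0.1 there were 35 genes, 20 higher and 15 lower. The number called depended on the tool and on single libraries: DESeq2 called 264 genes, 134 higher and 130 lower, and limma voom with sample weights called 258, 123 higher and 135 lower. Without KO PP library 24 the edgeR test called 62 genes, 30 higher and 32 lower, and without WT PP library 10 it called 22. Without the NN libraries and KO NP library 21, 16465 genes were tested, with 8220 positive and a median log2 fold change of 0. Of these, 637 were higher and 443 lower at an unadjusted p under 0.05 (edgeR), fewer than with all libraries. The counts for gene lists in that fit are to be read beside these numbers.

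A gene was counted as separated when every KO library lay above every WT library of the same treatment, or every one below, in the same direction in NN, NP and PP. This held for 45 genes that were higher in KO, 0.265% of the genes tested, and for 41 that were lower, 0.242%. The separated genes that were higher had a median log2 fold change of 0.76 (1.69-fold), and those that were lower had a median of -0.63. A looser count, of genes with the same sign of the fold change in all 3 treatments, gave 3145 genes that were positive in KO (18.5%) and 2419 that were negative (14.3%). Of the 86 separated genes, 83 had an unadjusted p under 0.05 in the additive fit and 23 an adjusted p under 0.1. As separation and fit use the same libraries, the first does not stand as independent evidence for the second.

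Insig1 rose in KO preparations. It encodes a membrane protein of the endoplasmic reticulum that holds the SCAP and SREBP complex back when sterols are plentiful, and it is itself a target gene of SREBP. Its level was 140 and 113 CPM in KO NN libraries against 44.8, 57.6 and 47.7 CPM in WT NN libraries. In NP it was 111, 94.8 and 176 CPM in KO libraries against 66.1, 81.8 and 67.3 CPM in WT libraries. In PP it was 150, 91.9 and 131 CPM in KO libraries against 84.5, 57.3 and 56.2 CPM in WT libraries. The lowest KO library exceeded the highest WT library in each treatment, by the least in PP. The log2 fold change was 1.01 ± 0.16 (SE) with an edgeR adjusted p of 0.0469, and it was 1.34 in NN, 0.83 in NP and 0.91 in PP (edgeR adjusted p of the interaction 1). The call stood close to its threshold. With 1 library left out, the edgeR adjusted p ran between 0.0211 and 0.191, under 0.05 when the library was KO NP 20, KO PP 23, KO PP 24 or WT PP 10 and over it for the other 13. It was 9.2e-05 by DESeq2 and 0.00978 by limma voom, and 0.72 by edgeR without the NN libraries and KO NP library 21, where the log2 fold change was 0.72.

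**Figure D1:**
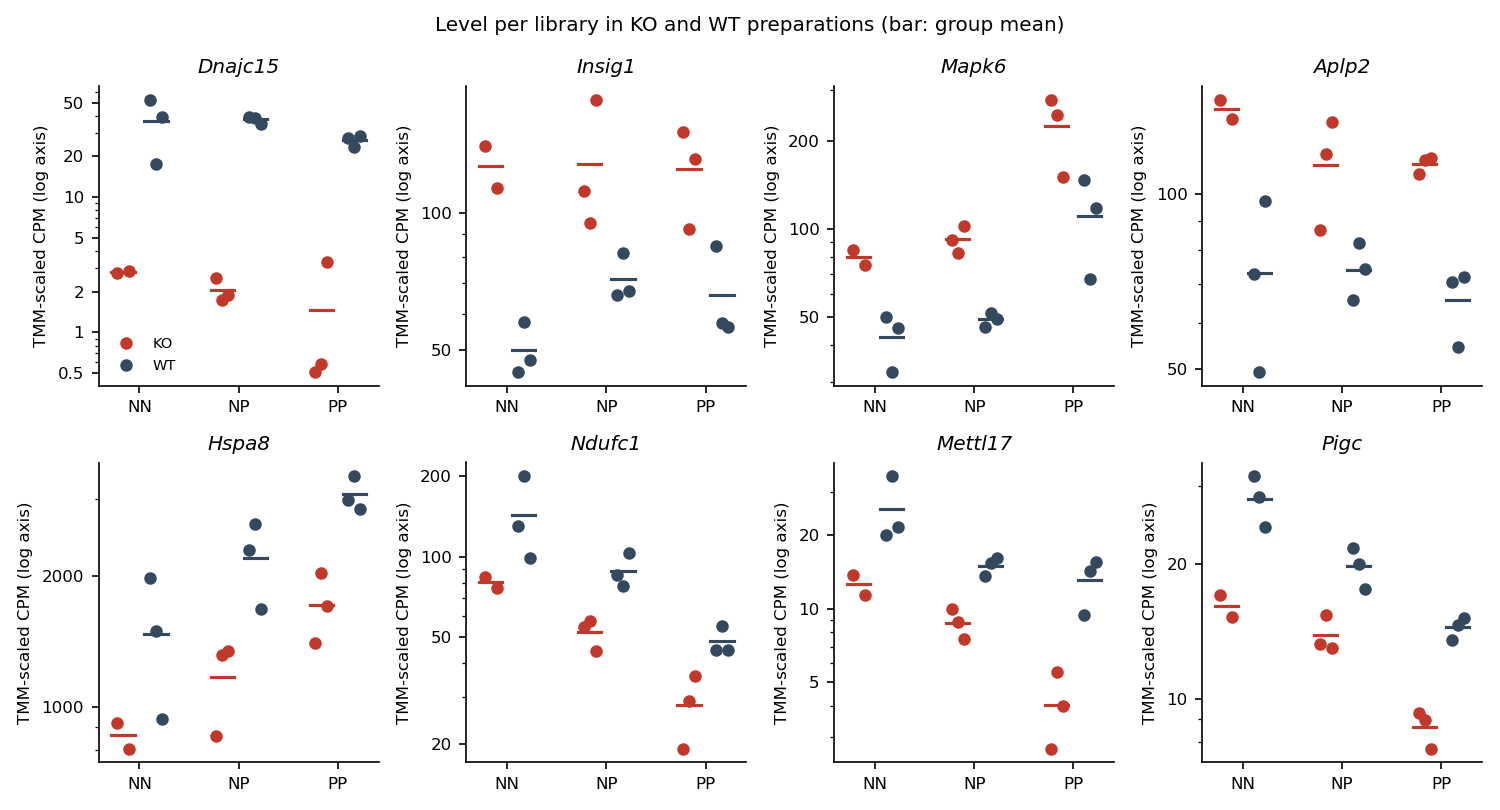
TMM-scaled CPM on a log axis for 8 genes in each library, by treatment, with KO (red, left) and WT (dark blue, right) and a bar at each group's mean. In all 8 panels the KO points of a treatment lie wholly above (Insig1, Mapk6, Aplp2) or wholly below (Dnajc15, Hspa8, Ndufc1, Mettl17, Pigc) the WT points, and some gaps are narrow, as for Hspa8 in NN, with 922 CPM in the highest KO library and 939 CPM in the lowest WT library, and for Mapk6 in PP, with 150 CPM in the lowest KO library and 148 CPM in the highest WT library.

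The promoter of Insig1 is shown because it is the only gene called higher. The stretch runs from 250 bases before to 50 after the gene's start (RefSeq, GRCm38.p6, chr5:28071162-28071461, plus strand). Capitals mark a CCAAT box on the opposite strand, which reads ATTGG here and starts 216 bases before the gene's start, and an E-box, CACGTG, at 101 bases before it.
Insig1 promoter: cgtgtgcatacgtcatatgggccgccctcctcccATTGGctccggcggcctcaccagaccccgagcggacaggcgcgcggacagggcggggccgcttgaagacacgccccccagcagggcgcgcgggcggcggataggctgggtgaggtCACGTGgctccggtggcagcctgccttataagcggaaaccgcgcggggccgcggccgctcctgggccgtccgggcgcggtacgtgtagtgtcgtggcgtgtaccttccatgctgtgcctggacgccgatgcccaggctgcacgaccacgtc
The motifs were picked after this sequence was seen and were searched on both strands without overlap between them. CCAAT was found in 37.4% of the 32851 RefSeq promoters of this length and CACGTG in 7.15%. The sterol regulatory element TCACNCCAC was in 1.24% of them, and its letters were not in this window. Among 38 separated genes that were higher in KO and had a promoter in the table, 47.4% held CCAAT, 15.8% CACGTG and 2.63% TCACNCCAC, against 36.7%, 6.67% and 0% of the 30 that were lower.

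A list of 25 genes of sterol synthesis and uptake was written after the values of Insig1 and Hmgcs1 had been seen, and so it stands as a description. In the additive fit 18 were positive and 7 negative, with a median log2 fold change of 0.31 against 0.09 for all genes tested, and the medians were 0.32 in NN, 0.15 in NP and 0.36 in PP. Only Insig1 passed the test. Without the NN libraries and KO NP library 21, 17 of the 25 were positive, with a median of 0.21, and none passed. At an unadjusted p under 0.05, 5 were higher in that fit, against 8 with all libraries (edgeR). Hmgcs1, the synthase of an early step of the pathway, had 219 and 246 CPM in KO NN libraries against 141, 93.7 and 110 CPM in WT NN libraries. Its NP level was 252, 182 and 339 CPM in KO libraries against 124, 202 and 79.5 CPM in WT libraries, so the genotypes overlapped there. In PP it had 277, 170 and 175 CPM in KO libraries against 111, 154 and 85.1 CPM in WT libraries, for a log2 fold change of 0.92 ± 0.19 (SE, edgeR adjusted p = 0.0887). Lss, which closes the sterol ring as lanosterol, had 1.12 ± 0.26 (edgeR adjusted p = 0.144). Sqle, squalene epoxidase, had 0.70 ± 0.18. Ebp, a sterol isomerase, went the other way at -0.37. Of the 17 list members with a promoter in the table, 94.1% held CCAAT, 29.4% CACGTG and 5.88% TCACNCCAC.

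The other separated genes that were higher in KO and had the smallest p are given by what they are known to do, first kinases, then membrane traffic and splicing. Mapk6, the atypical MAP kinase ERK3, had 84.4 and 75.5 CPM in KO NN libraries against 49.9, 32.3 and 45.9 CPM in WT NN libraries. In NP its level was 91.8, 82.6 and 103 CPM in KO libraries against 46.3, 51.7 and 49.1 CPM in WT libraries, and in PP 278, 246 and 150 CPM in KO libraries against 148, 67.6 and 118 CPM in WT libraries. The lowest KO PP library was only just above the highest WT PP library. Its log2 fold change was 0.95 ± 0.16 (edgeR adjusted p = 0.0745), with 0.91 in NN, 0.91 in NP and 1.01 in PP. Csnk1a1, the casein kinase that marks beta-catenin for breakdown, had 0.62 ± 0.13.

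Nsf, the ATPase that takes SNARE complexes apart after membrane fusion, had 24.2 and 20.2 CPM in KO NN libraries against 16.1, 8.75 and 12.4 CPM in WT NN libraries. Under DSS alone it had 24.1, 28.5 and 31.2 CPM in KO libraries against 14.4, 19.4 and 19.7 CPM in WT libraries. Its PP level was 67.0, 78.5 and 35.4 CPM in KO libraries against 22.5, 22.4 and 14.9 CPM in WT libraries, and its log2 fold change of 1.04 ± 0.20 (edgeR adjusted p = 0.0745) was 1.60 in PP against 0.84 in NN and 0.64 in NP. Myo6, the actin motor that carries endocytic vesicles inward, had 0.92 ± 0.18, and Aplp2, a relative of the amyloid precursor protein, had 0.76 ± 0.14. Both had an edgeR adjusted p of 0.0745. Of the splicing factors, Son, a scaffold of nuclear speckles, had 0.73 ± 0.15 and Scaf11 had 0.67 ± 0.15. Gadd45a, a growth-arrest gene induced by DNA damage, had 0.70 ± 0.15. The remaining genes of this group, Tatdn2, Gxylt1 and Fbxo34, had between 0.83 and 0.87, and Gxylt1 encodes a xylosyltransferase that extends sugars on Notch.

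**Figure D2:**
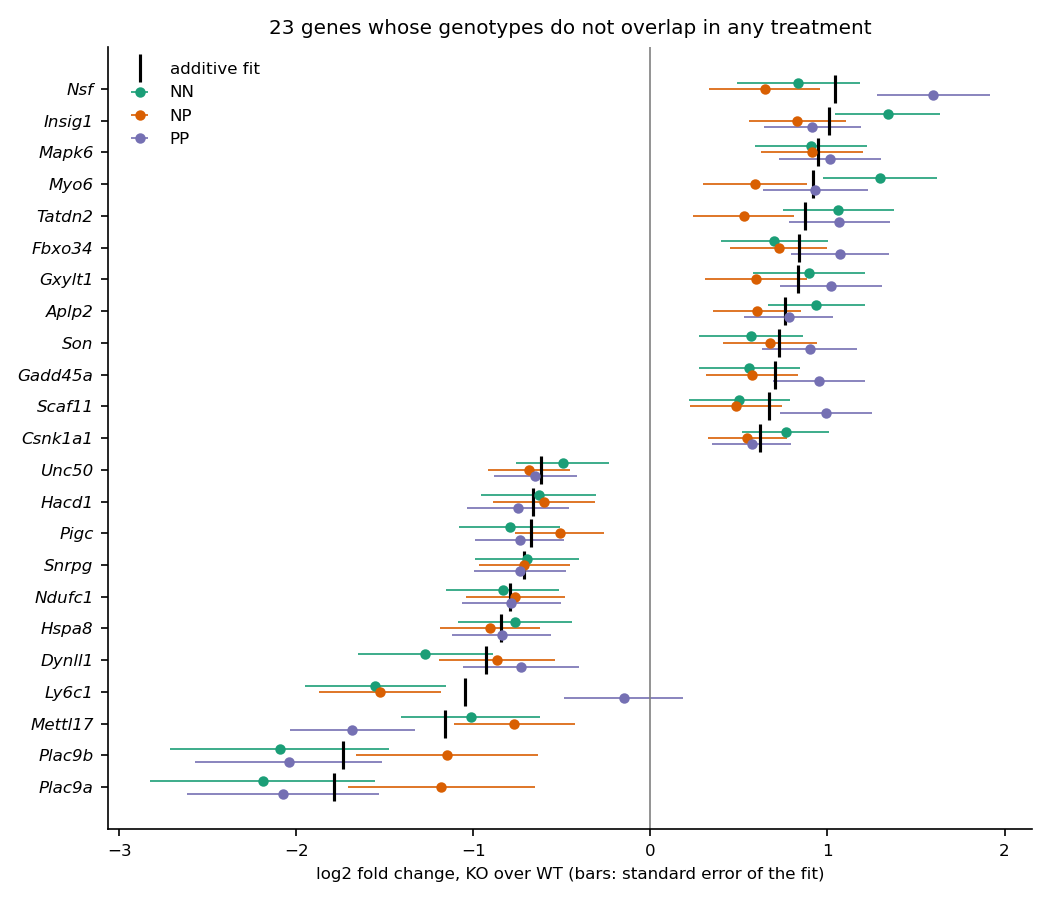
Log2 fold change of KO over WT, with its standard error as bars, in NN, NP and PP for 23 separated genes (12 higher, 11 lower, chosen by the p of the additive fit), and the additive estimate as a black tick. The 3 points of most genes lie within 1 unit of each other, and Ly6c1 has the widest gap, at -1.55 in NN, -1.53 in NP and -0.15 in PP.

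Among the genes that were lower in every KO library than in any WT library of the same treatment was Hspa8, which encodes HSC70, the constitutive cytosolic chaperone. It had 922 and 804 CPM in KO NN libraries against 1972, 1490 and 939 CPM in WT NN libraries. In NP it had 859, 1314 and 1342 CPM in KO libraries against 2291, 2627 and 1674 CPM in WT libraries. After antibiotic and DSS it had 1400, 2030 and 1706 CPM in KO libraries against 2977, 3375 and 2845 CPM in WT libraries. The log2 fold change was nearly equal in the treatments, with -0.77 in NN, -0.91 in NP and -0.84 in PP, and -0.84 ± 0.16 overall (edgeR adjusted p = 0.0745). In the list of 22 heat shock and endoplasmic reticulum (ER) stress genes, 10 were positive and 12 negative, with a median of -0.16 against 0.09 for all genes, and none passed the adjusted threshold. At an unadjusted p under 0.05, 8 were lower and 2 higher in KO (edgeR). Among all genes tested, 4.93% were lower and 6.93% higher at this threshold. Hsph1, a nucleotide exchange factor of HSP70, had -1.57 ± 0.34 (edgeR adjusted p = 0.098), with unequal values of -0.59 in NN, -1.31 in NP and -2.70 in PP. Dnaja1, an HSP70 co-chaperone, had -0.88 ± 0.19 (edgeR adjusted p = 0.0897). The inducible HSP70 genes Hspa1a and Hspa1b had -1.39 and -1.48, and as near-identical copies they may share reads. Hspb1, Hspe1 and Hsp90aa1 had -1.18, -0.83 and -0.51. Hspb1 was lowest in NN, with -2.48 there, -1.10 in NP and -0.35 in PP. The 2 that were higher were Herpud1 at 0.47 and Dnajb9 at 0.30. Herpud1 had 0.03 in NN, 0.01 in NP and 1.30 in PP, so its difference lay in PP. Other chaperones of the list had averages closer to 0, such as Hspd1 at -0.20, Dnajb1 at 0.04, Hsp90ab1 at 0.05, Sdf2l1 at -0.28 and Creld2 at -0.29. Some of these averages joined opposite signs. Hspd1 had 0.50 in NN, -0.01 in NP and -0.99 in PP, and Dnajb1 had -0.30, -0.06 and 0.41. Without the NN libraries and KO NP library 21, 7 of the 22 were lower and 1 higher at an unadjusted p under 0.05 (edgeR).

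Mettl17, needed for assembly of the mitochondrial ribosome, had 13.8 and 11.3 CPM in KO NN libraries against 19.9, 34.7 and 21.6 CPM in WT NN libraries. Its NP level was 9.95, 8.84 and 7.54 CPM in KO libraries against 13.5, 15.3 and 16.0 CPM in WT libraries. In PP it had 2.68, 5.49 and 4.01 CPM in KO libraries against 9.45, 14.2 and 15.4 CPM in WT libraries. The log2 fold change was -1.16 ± 0.22 (edgeR adjusted p = 0.0745) and largest in PP, at -1.68. Plac9a and Plac9b, which encode a small secreted protein, had -1.79 ± 0.33 and -1.74 ± 0.32. Together with Gm9780, at -1.75, they are near-identical copies whose reads cannot be assigned with certainty, and they count as 1 observation. Plac9a had 3.10 and 3.75 CPM in KO NN libraries against 7.20, 27.0 and 12.8 CPM in WT NN libraries. Its PP level was 2.30, 4.32 and 7.28 CPM in KO libraries against 10.5, 13.2 and 34.8 CPM in WT libraries, and fibroblast markers, given below, also had lower sums in KO libraries on average. The part of those markers in the Plac9 values was not tested.

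Of the others, Snrpg, a core protein of the spliceosomal particles, had -0.72 ± 0.14 and Pigc, of the first step of GPI anchor synthesis, had -0.67 ± 0.14. Dynll1, a light chain of the dynein motor, had -0.93 ± 0.20, and Unc50 had -0.62 ± 0.13. Hacd1, a dehydratase of very-long-chain fatty acid synthesis, had -0.66 ± 0.16. Ly6c1, a GPI-anchored surface protein, had -1.04 ± 0.26 (edgeR adjusted p = 0.155). It was the 1 gene among the 86 with an unadjusted interaction p under 0.05 (edgeR adjusted p = 0.613). Its PP levels were 141, 159 and 144 CPM in KO libraries against 171, 162 and 160 CPM in WT libraries. All 23 genes named in these groups kept their direction in 29 alternative fits. They were chosen for separation and a small p in these same libraries. Kept directions and calls by other tools are thus no independent evidence for them. DESeq2 and limma voom each called all 23, edgeR called 18 of them without KO PP library 24, and none of them passed with offsets for transcript length or without the NN libraries and KO NP library 21.

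Complex I is the respiratory complex that MCJ restrains, and its subunits are encoded in nuclear and mitochondrial DNA. Of 36 nuclear complex I subunits tested, 34 had a negative and 2 a positive log2 fold change in the additive fit, with a median of -0.43 against 0.09 for all genes. In every treatment 34 were negative, and the medians were -0.56 in NN, -0.40 in NP and -0.26 in PP. None passed the adjusted threshold, and 25 of the 36 had an unadjusted p under 0.05 (edgeR). All 25 were lower in KO. Among all genes tested, 4.93% were lower at this threshold, and 14.3% were negative in every treatment. Ndufc1, a small accessory subunit, was lower in every KO library. It had 84.3 and 76.4 CPM in KO NN libraries against 131, 200 and 98.7 CPM in WT NN libraries. Under DSS alone it had 54.8, 57.5 and 44.4 CPM in KO libraries against 85.2, 77.6 and 103 CPM in WT libraries, and in PP 19.1, 28.9 and 35.8 CPM in KO libraries against 44.7, 55.2 and 44.7 CPM in WT libraries. Its log2 fold change was -0.79 ± 0.16 (edgeR adjusted p = 0.083) and held at -0.84 in NN, -0.76 in NP and -0.79 in PP. Ndufa9, at -0.40, was the other complex I subunit without overlap. Ndufb6, Ndufb2 and Ndufab1 had -0.63, -0.56 and -0.55, and their KO and WT ranges overlapped in at least 1 treatment. Without KO PP library 24 edgeR called 3 of the 36. Without the NN libraries and KO NP library 21 all 36 were negative, with a median of -0.33 and 8 at an unadjusted p under 0.05 (edgeR). Among all genes in that fit, 443 of 16465 were lower at this threshold.

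The other nuclear genes of oxidative phosphorylation had similar values. Over all genes tested, 7239 of 16958 were negative, and 4.93% were lower and 6.93% higher at an unadjusted p under 0.05 (edgeR). Among complexes II to V, 35 of 39 subunits were negative and 4 positive, with a median of -0.41, and 25 were lower and 2 higher in KO at an unadjusted p under 0.05 (edgeR). Without the NN libraries and KO NP library 21 only 3 were lower and 1 higher, with a median of -0.32, and without KO PP library 24 edgeR called 5. Atp5e and Atp5j2, subunits of ATP synthase, had -0.61 ± 0.15 and -0.60 ± 0.16. Of 75 mitochondrial ribosomal proteins, 68 were negative, with a median of -0.30, and 23 were lower at an unadjusted p under 0.05, against 11 without the NN libraries and KO NP library 21. Cytosolic ribosomal proteins stood at nearly the same median, -0.29, with 71 of 77 negative and 28 lower at an unadjusted p under 0.05, so negative values were not limited to mitochondrial proteins. That count of 28 was 0 without the NN libraries and KO NP library 21, where 73 of 77 were negative with a median of -0.22, and 57 without KO PP library 24. The count of all genes lower at this threshold moved likewise. It was 443 of 16465 in the first of these fits and 1152 of 16862 in the second, against 836 of 16958 with all libraries. With all libraries, no gene of these lists passed the adjusted threshold.

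The 12 genes of MCJ, the import motor and its cofactors had 10 negative and 2 positive values, with a median of -0.29, and Dnajc15 was the 1 that passed the test. Pam16, the J-like protein that holds the import motor's co-chaperone at the channel, had -0.86 ± 0.26 (edgeR adjusted p = 0.209). Dnajc19, a close relative of MCJ, had -0.39 ± 0.16, and Timm23, the import channel, had -0.28 ± 0.14. The 13 mitochondrially encoded genes were all negative in the additive fit, with a median of -0.48, but the treatments differed, with medians of -1.38 in NN, 0.27 in NP and -0.60 in PP. The sign was thus not shared. Only COX3 and ND3 were negative in all 3 treatments, and at -0.76 and -0.77 neither passed the adjusted threshold. Without the NN libraries and KO NP library 21 the median of the mitochondrially encoded genes was -0.38, with 1 lower at an unadjusted p under 0.05, against 5 with all libraries (edgeR). Under scaling by another method (RLE), by nuclear genes alone or with offsets for transcript length, the medians of complex I, complexes II to V, both kinds of ribosomal protein and the mitochondrially encoded genes remained negative. Single counts moved with length offsets. At an unadjusted p under 0.05 (edgeR), 15 cytosolic ribosomal proteins were lower, against 28 without offsets, and 31 mitochondrial ones, against 23. Of the mitochondrially encoded genes 1 was positive with offsets, and ATP8 had -0.007, against -0.58 without them.

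**Figure D3:**
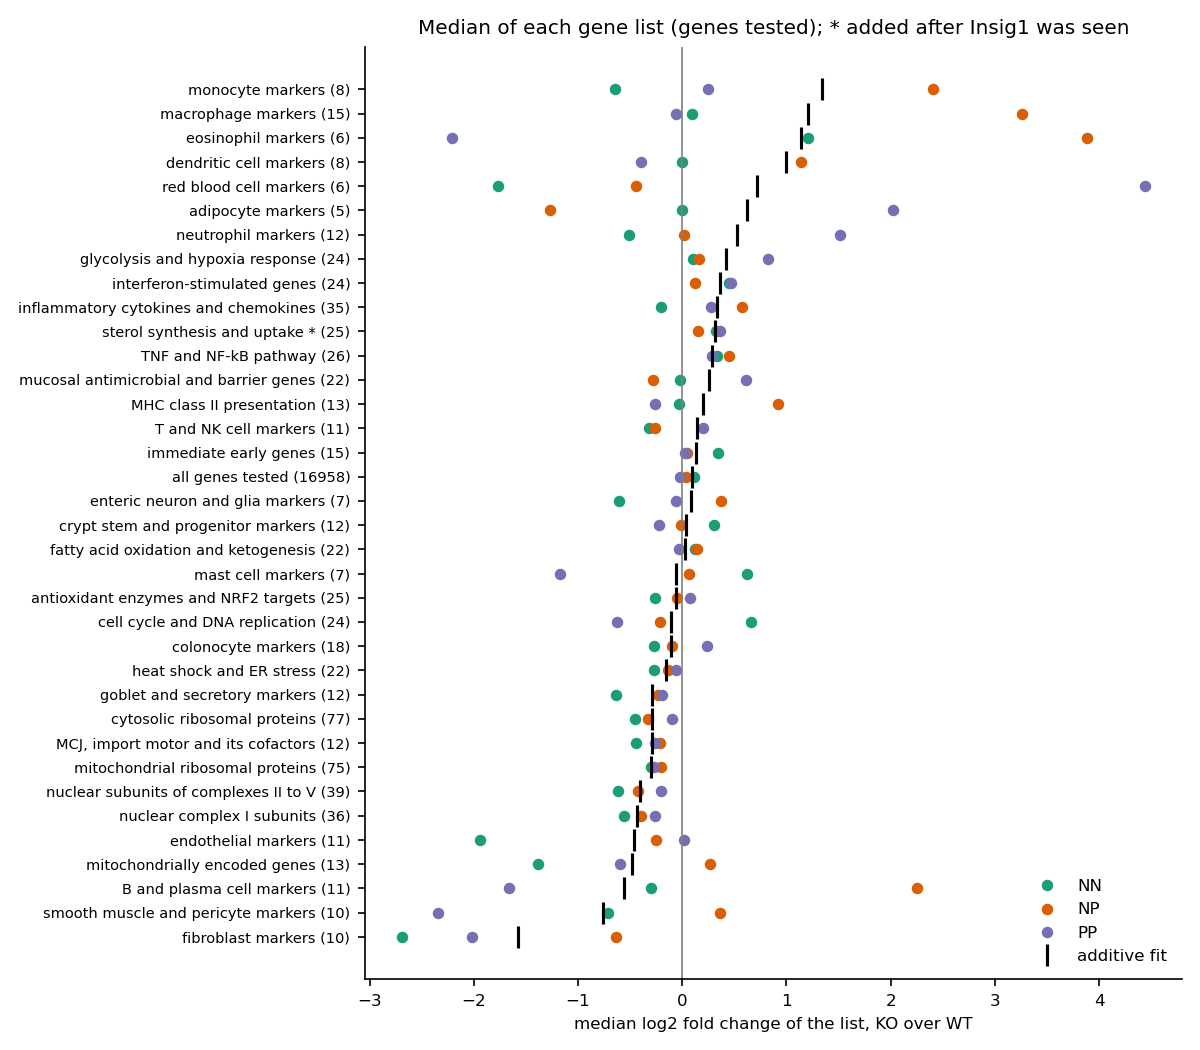
Median log2 fold change of KO over WT in each gene list for NN, NP and PP (coloured points) and the additive fit (black tick), with the number of genes tested in parentheses. The nuclear respiratory and ribosomal lists lie left of 0 in all 3 treatments, while marker lists of macrophages, red blood cells and eosinophils have treatments on both sides of 0.

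Genes of glycolysis and the hypoxia response were positive in the additive fit for 24 of 24, with a median of 0.42, and 10 had an unadjusted p under 0.05 (edgeR). The medians were 0.10 in NN, 0.16 in NP and 0.82 in PP, and 11 of the 24 were positive in all 3 treatments. All genes tested had medians of 0.11, 0.04 and -0.02, so the list stood furthest from them in PP. Of all genes, 9719 of 16958 were positive, 18.5% were positive in all 3 treatments and 6.93% were higher at an unadjusted p under 0.05 (edgeR). RLE scaling turned 3 of the 24 negative and nuclear scaling 2, and length offsets turned 1. Without the NN libraries and KO NP library 21 all 24 were positive, with a median of 0.52 and 6 at an unadjusted p under 0.05 (edgeR). Slc2a1, the glucose transporter GLUT1, was higher in every KO library than in any WT library of its treatment. It had 64.1 and 60.3 CPM in KO NN libraries against 47.2, 37.9 and 53.7 CPM in WT NN libraries. In NP it had 59.2, 69.9 and 64.1 CPM in KO libraries against 34.3, 36.9 and 55.8 CPM in WT libraries, and in PP 102, 233 and 67.7 CPM in KO libraries against 56.9, 44.4 and 37.9 CPM in WT libraries. Its log2 fold change was 0.89 ± 0.23 (edgeR adjusted p = 0.173), and that of Pdk1, the kinase that holds pyruvate out of the citric acid cycle, was 0.53. Fatty acid oxidation genes had no common sign, with 13 positive and 9 negative of 22 and a median of 0.03. Cpt1a, which admits long-chain fatty acids to mitochondria, had 0.62, and Hadha had 0.41. Antioxidant genes were split likewise, 12 positive and 13 negative, with Srxn1 at 0.44 and Gpx1 at -0.49.

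Of 26 genes of the TNF and NF-kB pathway, 25 were positive, with a median of 0.29, and 15 were positive in all 3 treatments. None passed the adjusted threshold and 6 had an unadjusted p under 0.05 (edgeR). Of all genes tested, 18.5% were positive in all 3 treatments and 6.93% were higher at this threshold. The fit without the NN libraries and KO NP library 21 had 22 positive, with a median of 0.35. Tnfaip3, which encodes the NF-kB inhibitor A20, had 0.82, and Ikbkb, a kinase of its activation, had 0.58. Of 35 inflammatory cytokines and chemokines, 24 were positive, and 8 were positive in all 3 treatments, shares near those of all genes, of which 9719 of 16958 were positive and 18.5% positive in all 3 treatments. At an unadjusted p under 0.05, 7 were higher and 0 lower (edgeR), against 6.93% and 4.93% of all genes. None passed the adjusted threshold. Of the 35, 27 were positive without the NN libraries and KO NP library 21, and 10 were higher at an unadjusted p under 0.05 (edgeR). Among all 16465 genes in that fit, 8220 were positive and 637 higher at this threshold. Osm, oncostatin M, had the smallest p of them, with 2.10 ± 0.42 (edgeR adjusted p = 0.083). It was near 0 in NN, at 0.131 and 0.103 CPM in KO libraries against 0.0819, 0.195 and 0.0764 CPM in WT libraries. Its NP level was 19.9, 39.6 and 33.4 CPM in KO libraries against 3.13, 2.21 and 8.03 CPM in WT libraries. After antibiotic and DSS it had 183, 297 and 98.0 CPM in KO libraries against 84.9, 14.2 and 53.3 CPM in WT libraries. The difference thus lay in the DSS treatments. Markers of macrophages were also higher in KO libraries in NP, where their sum was 532 to 1578 CPM in KO libraries and 152 to 241 CPM in WT libraries, and their part in the Osm values was not tested. Interferon-stimulated genes, with 20 of 24 positive and a median of 0.36, had none at an unadjusted p under 0.05 (edgeR). Of 13 MHC class II genes, 1 was positive in all 3 treatments.

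Several lists of cell type markers had larger medians than any pathway list, and the medians of most of them had different signs in different treatments. All 15 macrophage markers were positive in the additive fit, with a median of 1.21, but the medians were 0.09 in NN, 3.26 in NP and -0.06 in PP, and 2 of the 15 were positive in all 3. Without the NN libraries and KO NP library 21 their median was 1.23, and that of red blood cell markers was 2.68 against 0.72 with all libraries. The 8 monocyte markers had a median of 1.34, the 12 neutrophil markers 0.53 and the 6 eosinophil markers 1.14, with medians in PP of 0.25, 1.51 and -2.21. Red blood cell markers had -1.77 in NN, -0.44 in NP and 4.44 in PP. Fibroblast markers had a negative median in each treatment, at -2.69 in NN, -0.64 in NP and -2.02 in PP, and 9 of 10 were negative in the additive fit, with or without the NN libraries and KO NP library 21. Their sum was 8.74 and 12.8 CPM in KO NN libraries against 13.6 to 190 CPM in WT NN libraries, and 52.6 to 92.7 CPM in KO PP libraries against 67.2 to 827 CPM in WT PP libraries. Lum and Col1a1, of the collagen matrix, had -2.58 and -2.42, and none of the 10 passed the adjusted threshold. Goblet and secretory markers were negative for 10 of 12, with a median of -0.29 and Tff3, a trefoil peptide of goblet cells, at -1.13. Colonocyte markers, with 7 positive and 11 negative, had a median of -0.11. Those with the smallest p, Phgr1 and Aqp8, had -0.59 and -0.81. Pigr, the epithelial receptor for polymeric immunoglobulin, is not in that list and had 0.72 (edgeR adjusted p = 0.136). The parts of these markers in the fold changes given above were not tested.

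The deleted gene lies on chromosome 14, and the genes around it were examined separately. Of 557 genes tested on chromosome 14, 10 were separated in every treatment (1.8%), against 76 of 16401 on all other chromosomes (0.463%). They were Dnajc15, Mettl17, Plac9a, Plac9b, Gm9780 and Gm8971, which were lower, and Fbxo34, Glud1, Cog3 and Tm9sf2, which were higher. As 3 of the 10 are the near-identical Plac9 copies and Dnajc15 is the deleted gene itself, the number of independent genes is smaller. Among the other chromosomes the largest shares were 0.936% on chromosome 15, 0.897% on chromosome 5 and 0.888% on chromosome 9. At an unadjusted p under 0.05 the share was 13.6% on chromosome 14 and 11.8% elsewhere (edgeR). Around Dnajc15, itself not counted, Cog3 was the 1 separated gene within 5, 10 and 20 Mb on either side. It was 1 of 47 genes tested within 5 Mb (2.13%), of 85 within 10 Mb (1.18%) and of 155 within 20 Mb (0.645%). At an unadjusted p under 0.05 the shares were 12.8, 15.3 and 9.68% (edgeR). With 1 gene in each window, the shares cannot say whether separated genes were crowded there. The level of Cog3 was 22.8 and 22.5 CPM in KO NN libraries against 15.1, 9.97 and 18.5 CPM in WT NN libraries. Its log2 fold change was 0.63 ± 0.16. The 3 tested genes on either side of Dnajc15 had 0.81 for Akap11, 0.63 for Ccdc122, 0.26 for Tnfsf11, -0.20 for Gm10132, -0.24 for Epsti1 and -0.48 for Lacc1. None passed the adjusted threshold.

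**Figure D4:**
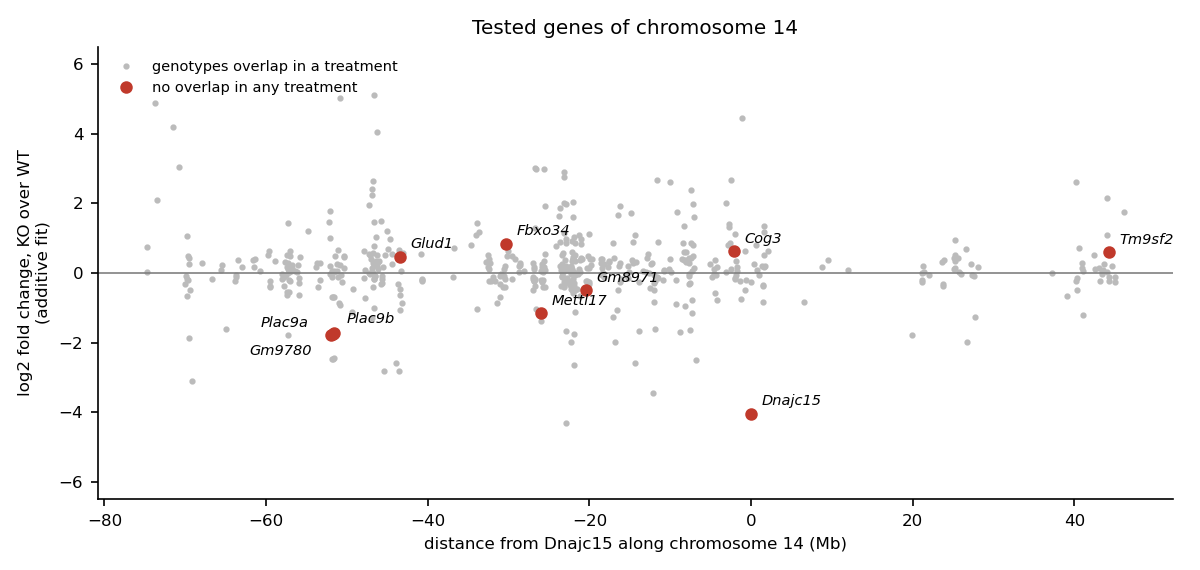
Log2 fold change of KO over WT in the additive fit for the 557 tested genes of chromosome 14, by distance from Dnajc15 in megabases, with genes separated in all 3 treatments in red. Dnajc15 stands at -4.04, and the other red points are spread along the chromosome, with Cog3 the nearest of them.

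The separated genes differed in transcript length. A gene's length was the median over all its transcripts in GENCODE M21, which need not be that of the form expressed here. Those that were higher in KO had a median length of 2077.5 bases (41 of 45 with a length in GENCODE M21), and those that were lower had 795 bases (34 of 41), against 1452 bases for the genes tested. The same was seen over 11385 genes that had a length and averaged 50 or more normalized counts, where the median log2 fold change was -0.02 for genes with transcripts under 750 bases, 0.03 from 750 to 1500, 0.13 from 1500 to 2500, 0.18 from 2500 to 3500 and 0.18 over 3500 bases. In the NN treatment the same medians ran between -0.03 and 0.38, and in PP between -0.04 and 0.10. Across these genes, which share their libraries, Spearman's rho of the fold change with length was 0.20, and it was 0.21 in NN, 0.15 in NP and 0.07 in PP. All 16 separated genes with such a length over 2500 bases were higher in KO, while of those under 1500 bases 16 were higher and 32 lower. Ndufc1, at 407.5 bases, belonged to the short ones. With offsets for length, 34 of the 36 complex I subunits were still negative, with a median of -0.36 and 23 at an unadjusted p under 0.05 (edgeR), and Insig1 had 0.86 with an adjusted p of 0.0842 (edgeR).

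**Figure D5:**
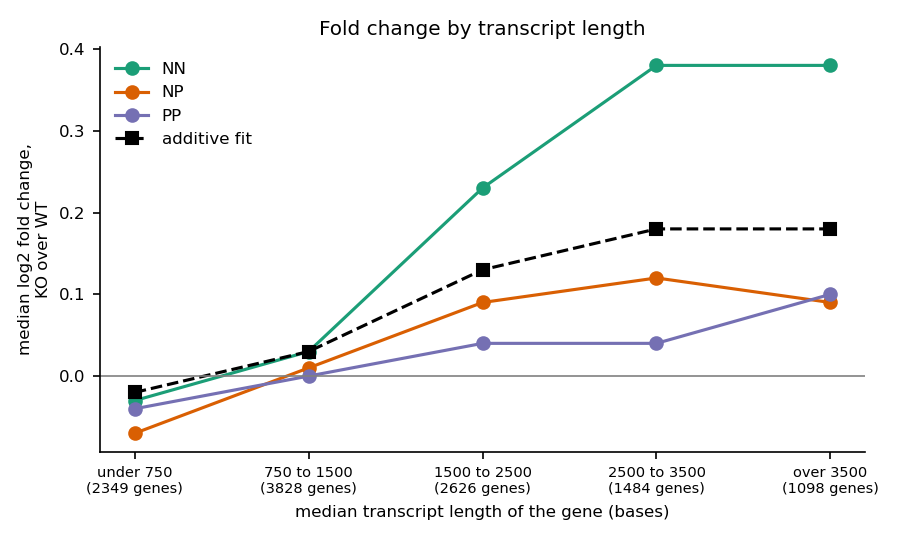
Median log2 fold change of KO over WT by median transcript length of the gene, for NN, NP and PP and the additive fit. The medians of the additive fit are -0.02 in the shortest class and 0.18 in the longest, and the line is steepest in NN.

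The additive model assumes 1 genotype effect for all treatments, and an edgeR test of the interaction found 8 genes, 0.0472% of those tested, whose effect differed between treatments at an adjusted p under 0.05. At an unadjusted p under 0.05 there were 1099. Sis, the brush-border sucrase-isomaltase, had 55 and 77 counts in KO NN libraries against 1, 1 and 0 counts in WT NN libraries, too few there for a fold change. In PP it had 4.28, 6.29 and 3.28 CPM in KO libraries against 12.2, 10.8 and 9.55 CPM in WT libraries, and its log2 fold change was 1.20 in NP and -1.23 in PP. Ang4, an antimicrobial protein of Paneth and goblet cells, had -3.45 in NN, 2.83 in NP and -2.81 in PP. Reg4, a lectin of enteroendocrine and deep crypt secretory cells, had 1.28 in NN, -0.92 in NP and -5.66 in PP. The others were Plet1, the haemoglobin genes Hbb-b1, Hba-a1 and Hba-a2, and Cd177, a surface protein of neutrophils. For these genes the average over treatments describes no treatment, and none of them was separated in all 3 treatments in 1 direction.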

How the data were processed

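Per the labels' protocols, total RNA came from a Trizol extraction and the library kit was NuGEN's Universal Plus mRNA-Seq. The deposited values are raw counts, in 3 tables by treatment with 27179 NCBI gene numbers each. Per the submitters' processing notes, CASAVA 1.8.2, FastQC, Trim Galore, STAR 2.5.4 and DESeq2 were used with mm10. The counting program and its strand setting are not given in the sources used here, so overlapping and antisense genes are uncertain. RefSeq (GRCm38.p6) named 25275 genes, and the 1904 unnamed ones took between 1.39 and 7.32% of a library's counts.

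The tables were merged by gene number. After filterByExpr had dropped low genes and TMM factors were computed, treatment plus genotype was fitted over all 17 libraries with the quasi-likelihood test of edgeR 4.0.16 in R 4.3.3, with Benjamini-Hochberg adjustment over all 16958 genes. Levels are TMM-scaled CPM, and fold changes are KO over WT. Fold changes per treatment and the interaction came from a fit of the 6 groups. The Dnajc15 permutation used log2 of CPM plus 0.01. The code was tested on simulated data with known changes. Alternatives were DESeq2 1.42.0, limma 3.58.1 voom, other scalings and filters, treatments or libraries left out, and, added after seeing the data, transcript length offsets (lowess span 0.3) and a fit without NN and KO NP library 21.

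Genes were named by rule. They were Dnajc15, called genes, the 12 separated genes in each direction with the smallest p, a mean of at least 50 normalized counts and no clone-like symbol, the 2 members of each list with the smallest p (4 for the import motor, mitochondrially encoded genes and complex I), the 3 tested genes on either side of Dnajc15, and the 6 with the smallest interaction p. Sterol genes, further chaperones, Ndufa9, Hba-a1, Cd177 and chromosome 14 genes outside the rule were named after their values were seen. A few genes that these choices would name are not reported here. The comparison and all lists (34 lists, 683 of 684 members matched) were chosen with earlier results of these data known.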

Additional observations from a re-analysis of the deposited data

Results flagged for a closer look

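The genotype effect differed between treatments by the edgeR interaction test for 8 genes. Their adjusted p was 0.0163 for Sis, Ang4 and Hbb-b1, 0.0225 for Plet1, 0.0238 for Hba-a2 and Reg4, 0.0297 for Hba-a1 and 0.0442 for Cd177. Plet1, a surface protein of epithelial progenitors, had 6.55 and 7.97 CPM in KO NN libraries against 18.5, 28.6 and 11.3 CPM in WT NN libraries, and 302, 202 and 279 CPM in KO PP libraries against 46.6, 76.1 and 51.0 CPM in WT PP libraries, so the direction was opposite in NN and PP. Cd177 had a log2 fold change of -1.38 in NN, -1.29 in NP and 1.89 in PP. Hbb-b1, a haemoglobin chain, had -1.84 in NN, -0.59 in NP and 4.65 in PP, with 2955, 4474 and 336 CPM in KO PP libraries against 126, 95.1 and 89.6 CPM in WT PP libraries. Hba-a1 and Hba-a2 are near-identical copies and may share reads. Leaving out WT NN library 3 gave 35 such genes, and leaving out KO PP library 22 or WT NP library 7 gave 0.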

How the results depend on the processing

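Dnajc15 stayed called in all 29 alternatives, between -4.39 and -3.90 with 1 library left out. The count of genes called in the additive fit, 2, was 1 with RLE factors, with scaling by nuclear genes, as the mean of 3 contrasts, without NN, without NN and KO NP library 21 and with length offsets, 7 with the robust fit, 8 without a filter, 27 without PP, 258 by limma voom and 264 by DESeq2. With 1 library left out it ran between 1 and 62. The interaction count, 8, was 2 with the robust fit, 2 by voom, 74 without a filter and 143 by DESeq2, and ran between 0 and 35 with 1 library left out. The count of separated genes, 86, was 91 to 326 with 1 library left out, since fewer libraries separate more easily by construction. It was 326 without KO PP library 24, 177 without WT PP library 10, 145 without WT NP library 8 and 130 without KO PP library 23. The count of genes with the same sign in every treatment, 5564, was 4929 to 5929 with 1 library left out. Of 100 named results, 93 kept their direction in all alternatives. Mmp8 was -0.27 as the mean of 3 contrasts and Ighm -0.00070 without NN and -0.56 by voom. Ccr3 was -1.27 without NP and -1.22 by voom, Ear2 -1.50 without NP, Hba-a1 -0.96 without PP and Ephb3 0.29 by voom. Tnfsf11 was -0.17 by voom and ran between -0.31 and 0.67 with 1 library left out, with -0.012 without KO NP library 19 and -0.31 without KO PP library 24. The causes were not tested. No paired analysis was possible because no library number is shared between groups and the mouse numbers are not said to mark pairs. Mouse numbers 1 and 2 recur in KO NN, KO NP and WT NN, number 3 in KO NP and WT NN, and number 10 in KO PP and WT PP.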
